A study of Mus musculus with 8 samples.

Results

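Keratins are the intermediate filament proteins of epithelial cells. A filament is built from pairs of 1 acidic type I and 1 basic to neutral type II keratin, so each epithelium expresses a member of each type. Simple epithelia, such as the airway and alveolar lining, use the type II members Krt8 and Krt7 with the type I members Krt18 and Krt19. Basal cells and stratified epithelia use others, such as Krt14 and Krt15, and hair and nail have a large set of their own.

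The keratin family was described here as the genes whose symbol is Krt followed by digits alone. Of 22180 genes with a probe set annotated to 1 symbol, 49 met this rule through 50 probe sets, and for Krt18, which had 2, the probe set with the higher mean was used. Krt5 is not among the members, because its probe set carried several symbols. The arrays measured RNA of club cells, which line the small airways and secrete secretoglobins, taken from the lung. The 4 Atgl KO/cTg samples are labelled as club cells lacking Atgl (gene symbol Pnpla2, the lipase that starts triglyceride breakdown), and the 4 wt/cTg samples are their controls. Both genotypes carry cTg, which the labels do not expand, and the labels name no promoter or Cre for it or for the deletion. The mice were 38 to 46 weeks old in Atgl KO/cTg and 41 to 48 weeks in wt/cTg, and received no treatment. Each sample is a pool of 3 or 4 mice, from 16 mice in the Atgl KO/cTg group and 14 in the wt/cTg group, so the spread given is between pools. The pools are called KO pool 1 to 4 and wt pool 1 to 4, where the number is a name only. The question is which keratins are expressed in these cells and whether their signals differ between the genotypes.

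The pools also carried markers of other cells, and some pools stood apart. The club cell marker Scgb1a1, a secretoglobin, averaged 12.92 ± 0.10 in Atgl KO/cTg, against 12.99 ± 0.08 in wt/cTg on the log2 scale (SD, n = 4 each). Mesothelial markers, from the lining of the lung surface that also expresses Krt7, Krt8, Krt18 and Krt19, were high as well, with Upk3b at 10.90 to 11.44 in Atgl KO/cTg, against 10.90 to 11.25 in wt/cTg. The alveolar type 2 marker Sftpc was higher still, at 12.50 to 12.57 in Atgl KO/cTg, against 12.78 to 13.03 in wt/cTg. A keratin signal therefore cannot be assigned to club cells alone. The signal of Xist, the RNA that coats the inactive X, was 9.34 to 10.49 in Atgl KO/cTg, against 3.75 in wt pool 4 and 10.30 to 10.67 in the other 3 wt/cTg pools. The sex of the mice is not among the sample details used here, and its part in the keratin values was not tested. KO pool 2 and wt pool 4 were the extremes of principal component 1, which held 29.3% of the variance. Pnpla2 read 6.70 to 7.16 in Atgl KO/cTg, against 8.62 to 8.86 in wt/cTg, with no overlap (log2 difference -1.72, limma adjusted p = 0.000116).

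The highest signals of the family came from 4 simple epithelial keratins. Values are the deposited log2 signals, and a keratin was counted as measurable where its mean over the 8 arrays exceeded the median of all probe sets, 5.18. By this mark 18 of the 49 keratins were above the filter, against 13112 of all 22180 genes. The 18 were 4 of 5 simple epithelial keratins, 7 of 16 basal and stratified ones, 3 of 22 of hair, nail and hair follicle, and 4 of 6 placed in no class. Probe sets differ in how well they bind their target, so the order is one of signals and not of transcript amounts. No detection call was used here, and a signal near the filter is not shown to be expression.

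Krt18 led with a mean over the 8 arrays of 10.58, at the 98.0th percentile of all probe sets. Its partner Krt8 followed at 9.85 (96.3), then Krt19 at 9.39 (94.8), which lacks the tail domain of other keratins, and Krt7 at 8.83 (92.0). The order from Krt18 to Krt8, Krt19 and Krt7 held on 8 of 8 arrays. Below them, neighbours were mostly less distinct. Krt7 exceeded Krt15 on 7 of 8 arrays, Krt15 exceeded Krt80 on 6, and Krt80 exceeded Krt23 on 6. Krt23 exceeded Krt79, and Krt79 exceeded Krt14, on 8 of 8 arrays. Krt14, at 6.26, and Krt81, at 6.11, were not ordered, each being the higher on 4 of 8 arrays. Krt20, the fifth simple keratin and one of intestinal and urothelial epithelium, had a mean of 3.64.

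**Figure D1:**
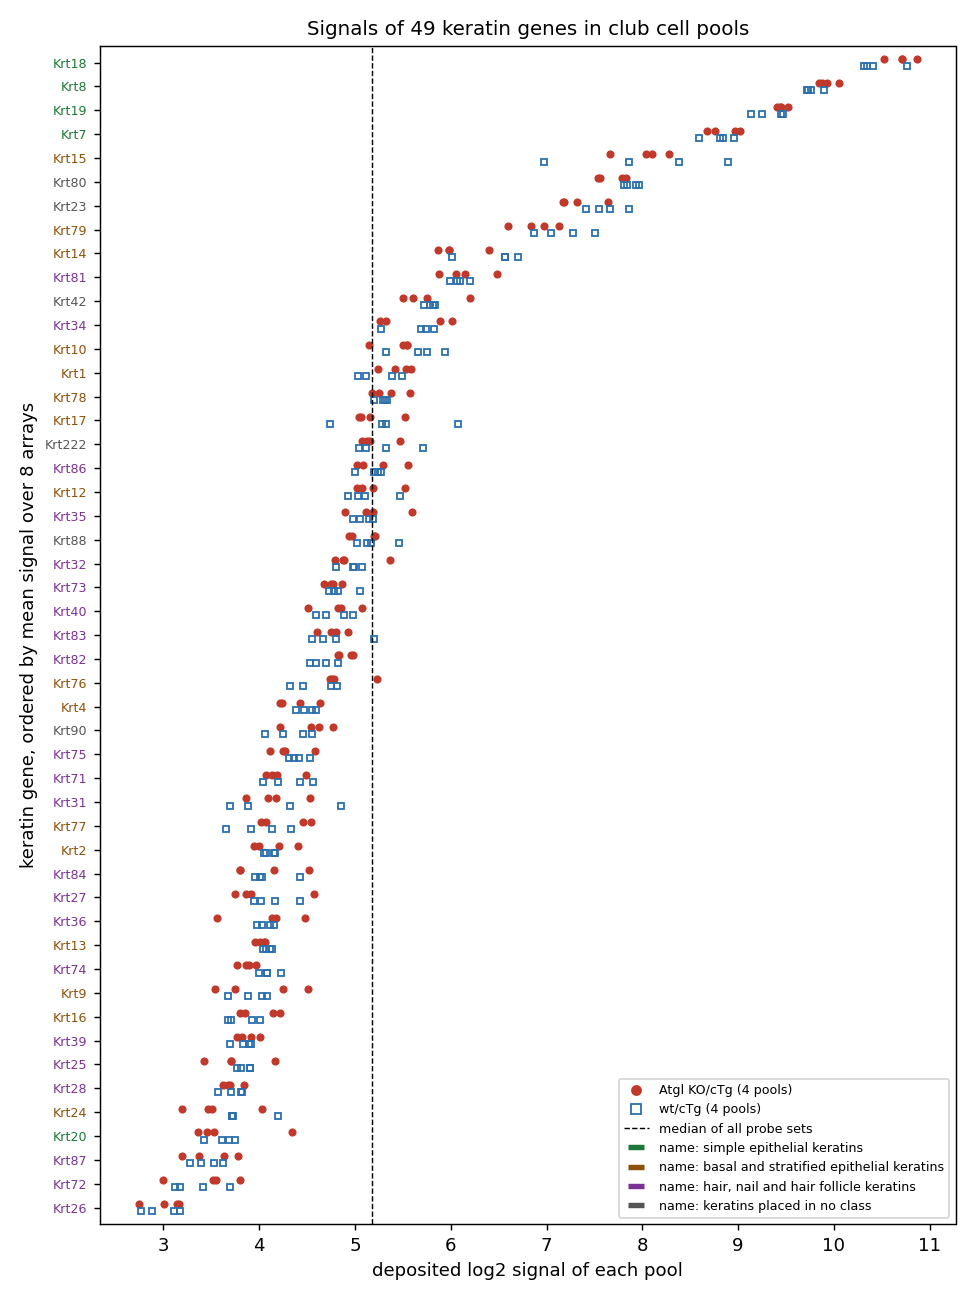
Deposited log2 signal (horizontal axis) of each of the 49 keratins (rows, ordered by mean) in each pool, with filled circles for Atgl KO/cTg and open squares for wt/cTg. The dashed line is the median of all probe sets, 5.18. Krt18, Krt8, Krt19 and Krt7 stand at the top, and the last 31 genes have means left of the line.

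The remaining 31 keratins had means from 3.00 (Krt26, of the hair root sheath) to 5.17. They were 19 hair keratins, 9 basal and stratified, 2 placed in no class, and Krt20. The 2 just above the filter were Krt222 (5.25) and Krt86 (5.21), and the 2 just below it were Krt12 (5.17), a keratin of the cornea, and Krt35 (5.14), a hair keratin. The hair class had a median of 4.22, and its highest members were Krt81 at 6.11, a keratin of the hair shaft, and Krt34 at 5.63. Krt42, a nail keratin in the mouse with a mean of 5.78, was placed in no class and is not counted there. Krt81, Krt83, Krt86 and Krt87 are close relatives, as are Krt14, Krt16, Krt17 and Krt42, and whether their probe sets tell them apart was not tested. The 51 keratin-associated protein genes, which make the hair matrix, had a median of 3.51, with 9 above the filter.

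Both types of keratin were present above the filter, 9 of 25 type I and 8 of 22 type II, besides Krt222, which was not assigned a type. In the RefSeq annotation (GRCm38.p6) 25 members lie on chromosome 11 and 24 on chromosome 15, and 9 of each were above the filter. Krt8 and Krt18 are neighbouring protein-coding genes there, as are Krt15 and Krt19, and Krt80 and Krt7. Krt20 sits beside Krt23, which averaged 7.47.

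Promoters are shown for 3 of the 4 leading simple keratins (Krt18, Krt8 and Krt7), for Krt23 and for the hair keratin Krt34, to set simple keratins beside others. Those of Krt19, Krt15 and Krt80 are not shown. RefSeq sequences (GRCm38.p6) from 250 bases before to 50 bases after the annotated start were found for 34 of the 49 members, 10 of them above the filter. The windows are chr15:102027966-102028265 (Krt18, plus strand), chr15:102004293-102004592 (Krt8, minus strand), chr15:101412153-101412452 (Krt7, plus strand), chr11:99493071-99493370 (Krt23, minus strand) and chr11:100041505-100041804 (Krt34, minus strand). Capitals mark matches on either strand to 5 motifs. They are the TATA box TATAAA, the motif called CCAAT, the GC box written as GGGCGG, the AP-1 motif with the letters TGANTCA and the AP-2 motif with the letters GCCNNNGGC.
Krt18: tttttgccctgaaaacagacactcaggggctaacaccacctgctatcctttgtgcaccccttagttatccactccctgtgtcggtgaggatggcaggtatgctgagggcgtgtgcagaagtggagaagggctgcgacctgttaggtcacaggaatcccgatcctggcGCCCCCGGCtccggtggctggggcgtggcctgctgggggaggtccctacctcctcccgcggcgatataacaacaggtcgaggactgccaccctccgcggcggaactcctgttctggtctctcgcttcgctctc
Krt8: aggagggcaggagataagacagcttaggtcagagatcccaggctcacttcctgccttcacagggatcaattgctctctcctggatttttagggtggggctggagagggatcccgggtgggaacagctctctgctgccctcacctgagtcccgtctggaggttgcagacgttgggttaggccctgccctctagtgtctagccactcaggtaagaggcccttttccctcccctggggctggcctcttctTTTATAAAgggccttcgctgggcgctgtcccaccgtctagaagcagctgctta
Krt7: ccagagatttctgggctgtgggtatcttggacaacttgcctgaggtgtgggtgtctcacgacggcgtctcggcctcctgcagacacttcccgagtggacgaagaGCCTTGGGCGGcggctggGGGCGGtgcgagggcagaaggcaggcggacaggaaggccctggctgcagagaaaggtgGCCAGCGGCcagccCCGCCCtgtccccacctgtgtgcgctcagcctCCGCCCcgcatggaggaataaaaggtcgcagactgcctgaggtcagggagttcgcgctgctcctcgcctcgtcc
Krt23: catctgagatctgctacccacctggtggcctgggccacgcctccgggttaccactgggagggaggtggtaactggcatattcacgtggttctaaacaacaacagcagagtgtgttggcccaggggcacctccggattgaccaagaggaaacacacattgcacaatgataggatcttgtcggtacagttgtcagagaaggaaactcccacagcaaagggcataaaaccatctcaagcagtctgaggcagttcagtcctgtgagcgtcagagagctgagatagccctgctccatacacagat
Krt34: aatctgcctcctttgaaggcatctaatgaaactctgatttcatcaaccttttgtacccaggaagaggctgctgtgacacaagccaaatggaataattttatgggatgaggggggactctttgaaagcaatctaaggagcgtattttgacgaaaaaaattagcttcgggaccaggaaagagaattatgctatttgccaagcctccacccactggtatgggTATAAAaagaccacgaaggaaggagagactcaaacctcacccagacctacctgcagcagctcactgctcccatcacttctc
In Krt34 the capitals are the TATA box letters, beginning 31 bases before the start. In Krt8 they are the same letters on both strands in overlap, beginning 3 bases and 1 base before the start and running across it. Krt18 held an AP-2 match at -83, and Krt7 held 2 AP-2 matches (-146 and -70) and 4 GC boxes (-141, -128, -56 and -24), the first of each in overlap. Krt23 had no match in this window.

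The letters of the TATA box were the most frequent of the 5 motifs in keratin promoters. Matches were counted at any position of the window and on either strand. Those of Krt8 ran across the start and that of Krt42 lay at +20, so a match is not shown to be a working TATA box. TATAAA was found in 18 of 34 keratin promoters (52.9%), against 14.2% of the 27025 promoters in the table, in 4 of the 10 above the filter (Krt8, Krt10, Krt34 and Krt42) and in 14 of the 24 below it. GGGCGG was found in 2 of 34 (Krt7 and Krt75), against 35.9% of all. CCAAT was in 13 of 34 (38.2%) against 37.9% of all, GCCNNNGGC in 7 of 34 (20.6%) against 16.5%, and TGANTCA in 1 of 34 (2.94%) against 7.93%. These are counts of letters, and no enrichment was tested.

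No keratin passed the test between the genotypes. Of the 18 keratins above the filter, 0 passed limma with Benjamini-Hochberg adjustment over 13112 genes at an adjusted p of 0.05, where 0.0991% of all genes (13) passed. Those 13 were 0.0153% of genes higher (2) and 0.0839% lower (11) in Atgl KO/cTg. At an unadjusted limma p under 0.05 there were 3, Krt14, Krt18 and Krt23, or 16.7%, against 7.95% of all genes. Groups that did not overlap were found for 0 of the 18, against 4.35% of all genes. The median difference was -0.01 over the 18 keratins and -0.01 over all genes tested, with 8 of 18 keratins above 0 and 10 below, where 47.8% of all genes lay above 0. The count of 3 rested on single pools. It was 0 without wt pool 2, and 4 after quantile normalization. It was 1 without KO pool 1 (Krt79), KO pool 4 (Krt23), wt pool 4 (Krt10) or both extreme pools of component 1 (Krt14). Without any other pool it was 2 or 3, and the 3 without wt pool 3 were Krt14, Krt23 and Krt79.

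**Figure D2:**
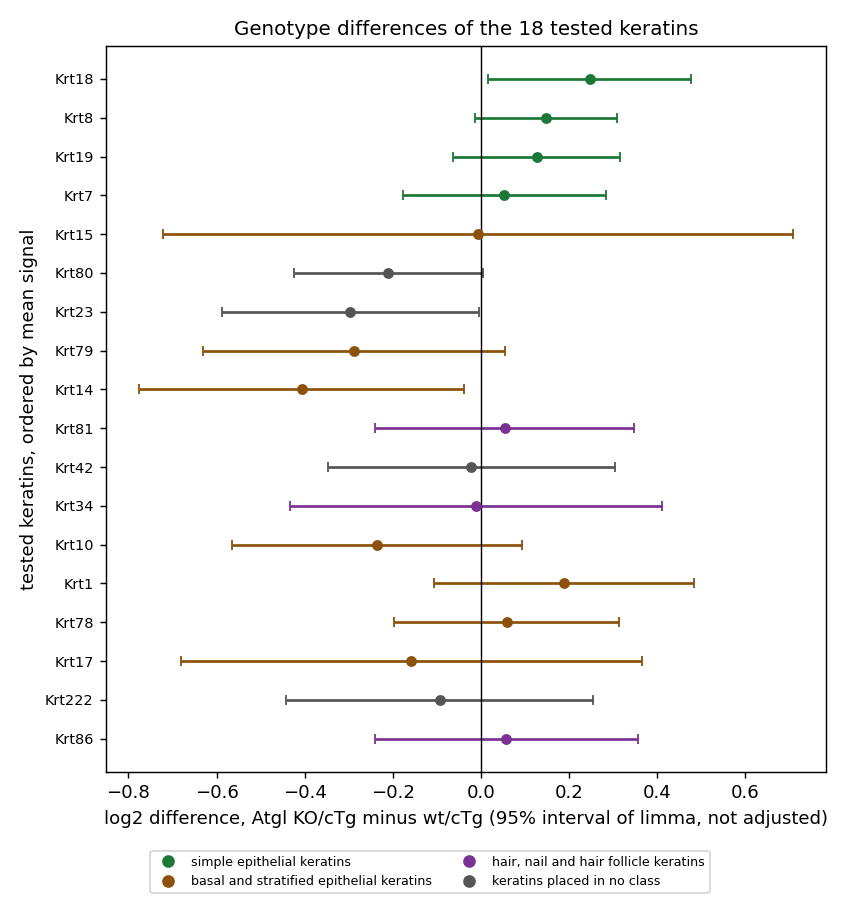
Log2 difference, Atgl KO/cTg minus wt/cTg (horizontal axis), of the 18 tested keratins, ordered by signal, with unadjusted 95% intervals of limma. Points of Krt18, Krt8, Krt19 and Krt7 lie right of 0 and those of Krt80, Krt23, Krt79 and Krt14 left of it. The intervals of Krt18, Krt23 and Krt14 do not include 0.

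The 4 measurable simple keratins all had differences above 0, of 0.05 to 0.25, and none passed. Krt18, the type I partner of Krt8, read 10.71, 10.71, 10.53 and 10.86 in Atgl KO/cTg, against 10.76, 10.35, 10.41 and 10.31 in wt/cTg. The means were 10.70 ± 0.14 in Atgl KO/cTg, against 10.46 ± 0.21 in wt/cTg (SD, n = 4 each). The groups overlapped through wt pool 1 alone, since the other 3 wt/cTg pools lay below every Atgl KO/cTg pool. The difference was 0.25 (SE 0.10, 95% interval 0.02 to 0.48, limma adjusted p = 0.599, exact permutation p = 0.114). Without wt pool 1 it was 0.35 (limma adjusted p = 0.245), and without KO pool 4 it was 0.19 (limma adjusted p = 0.612). With runs of mouse numbers as a block it was 0.20 (limma adjusted p = 0.826). Within the 3 runs of neighbouring mouse numbers that hold both genotypes, it was -0.05, 0.18 and 0.55. The other Krt18 probe set gave 0.18 (limma adjusted p = 0.682).

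Krt8, the main type II keratin of simple epithelia, read 9.93, 9.88, 9.84 and 10.05 in Atgl KO/cTg, against 9.90, 9.72, 9.73 and 9.77 in wt/cTg. Here too wt pool 1 was the one control pool within the Atgl KO/cTg range. The difference was 0.15 (SE 0.07, 95% interval -0.01 to 0.31, limma adjusted p = 0.658, exact permutation p = 0.0857).

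Krt19 read 9.52, 9.45, 9.44 and 9.41 in Atgl KO/cTg, against 9.46, 9.45, 9.14 and 9.25 in wt/cTg. The wt pools 3 and 4 lay below the Atgl KO/cTg range and the other 2 within it (difference 0.13, 95% interval -0.06 to 0.32, limma adjusted p = 0.766). Without wt pool 3 the difference was 0.063, and with runs of mouse numbers as a block it was 0.049. Krt7, a keratin of glandular and ductal epithelia, read 8.97, 8.67, 8.76 and 9.02 in Atgl KO/cTg, against 8.96, 8.84, 8.59 and 8.81 in wt/cTg. Its groups lay over each other (difference 0.05, 95% interval -0.18 to 0.28, limma adjusted p = 0.942), and the sign turned without wt pool 3 (-0.02).

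The alveolar type 2 and club cell marker lists had scores that did not overlap between the genotypes. Both lists were chosen with earlier results of these data known, which may have built in this separation. The score, the mean log2 signal of the tested markers of a list, was 10.11 to 10.36 in Atgl KO/cTg, against 10.57 to 11.02 in wt/cTg for 14 alveolar type 2 markers, all of which lay below 0 and 5 of which fell by the limma test, where 0.0839% of all genes were lower. These calls were lost, with 0 of 14 passing, in 9 of 19 settings, which were without the variance trend, after quantile normalization, with runs of mouse numbers as a block, and without KO pool 1, 3 or 4 or wt pool 2, 3 or 4. For 12 club cell markers it was 10.66 to 10.81 in Atgl KO/cTg, against 10.53 to 10.62 in wt/cTg, with 10 above 0 and none passing. The club markers below 0 were Scgb1a1 (-0.07) and Scgb3a2 (-0.09), and the highest differences were those of Cckar (0.41), Retnla (0.36) and Gabrp (0.34). For 9 mesothelial markers the score was 9.47 to 9.996 in Atgl KO/cTg, against 9.44 to 9.96 in wt/cTg, with 8 above 0 and none passing. In the other lists none passed either. Lists mostly above 0 were goblet cells (11 of 11, median difference 0.59) and ciliated cells (12 of 12, 0.23), and lists mostly below 0 were fibroblasts (12 of 12, -0.34), endothelial cells (9 of 12, -0.32) and alveolar type 1 cells (11 of 12, -0.27). Leukocyte markers had 5 above 0 and 8 below (median -0.01). The wt/cTg pool with the Krt18 value nearest to Atgl KO/cTg, pool 1, had the lowest type 2 score (10.57) and the highest club score (10.62) of its genotype. It was also the highest of the wt/cTg pools in the mesothelial (9.96), goblet (8.74), leukocyte (9.03), fibroblast (9.43) and basal cell (6.76) scores, and the lowest in the ciliated score (7.34). The part of these lists in the keratin differences was not tested. In pooled cells, fewer cells of a type and less RNA per cell cannot be told apart.

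Basal and stratified keratins had mixed signs, 2 of 7 tested above 0 and 5 below, and none passed. Krt14, the type I keratin of basal cells, had the most negative difference and the smallest p of the family. It read 5.98, 6.40, 5.98 and 5.87 in Atgl KO/cTg, against 6.57, 6.70, 6.01 and 6.57 in wt/cTg. The means were 6.06 ± 0.23 in Atgl KO/cTg, against 6.46 ± 0.31 in wt/cTg (SD, n = 4 each). Of the Atgl KO/cTg pools, 3 lay below every wt/cTg pool, and KO pool 2 lay above wt pool 3. The difference was -0.41 (SE 0.17, 95% interval -0.78 to -0.04, limma adjusted p = 0.576, exact permutation p = 0.0571). It was below 0 within each of the 3 runs of mouse numbers (-0.38, -0.72 and -0.70), and with runs as a block it was -0.58 (limma adjusted p = 0.457). Without wt pool 2 it was -0.33 (limma adjusted p = 0.801).

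Krt15, another type I keratin of basal cells, read 8.04, 8.10, 7.67 and 8.28 in Atgl KO/cTg, against 8.39, 8.89, 7.87 and 6.97 in wt/cTg. Both the highest and the lowest pool were wt/cTg, and the difference was -0.01 with a wide interval (-0.72 to 0.71, limma adjusted p = 0.999). It ran from -0.36 without wt pool 4 to 0.28 without wt pool 2, and within the 3 runs of mouse numbers it was -0.31, -1.23 and 1.31. Its spread within genotypes was larger than that of 99.3% of the genes tested. For Krt17 the share was 97.1%, for Krt18 53.5% and for Krt8 9.52%. The wt pool 4, lowest in Krt15, also had the lowest goblet cell score (7.53, against 8.59 to 9.60 in Atgl KO/cTg and 8.22 to 8.74 in the other wt/cTg pools). It had the highest alveolar type 1 score (9.05, against 8.07 to 8.41 in Atgl KO/cTg and 8.23 to 8.52 in the other wt/cTg pools). The same pool had the low Xist signal. The part of these cells or of sex in its Krt15 value was not tested.

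Other markers of basal cells are given beside Krt14 and Krt15, and none passed. Trp63, the transcription factor that defines basal cells, read 5.32 to 5.79 in Atgl KO/cTg, against 5.33 to 5.52 in wt/cTg, and Ngfr, a basal cell surface receptor, was below the filter. The basal cell score over 8 tested markers was 6.54 to 6.71 in Atgl KO/cTg, against 6.42 to 6.76 in wt/cTg, with 5 above 0, 3 below and none passing. Snai2, a transcription factor that fibroblasts also express, had the smallest p of that list (-0.67, limma adjusted p = 0.398).

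Krt79, a keratin of skin glands and hair follicle ducts, read 7.13, 6.60, 6.98 and 6.84 in Atgl KO/cTg, against 7.05, 7.27, 6.87 and 7.51 in wt/cTg. The ranges overlapped, with wt pool 4 the highest (difference -0.29, 95% interval -0.63 to 0.05, limma adjusted p = 0.693), and without that pool the difference was -0.18 (-0.08 without KO pool 2 as well). Within the 3 runs it was -0.18, -0.30 and -0.67. A further 4 stratified keratins were near the filter, of which Krt1 was named after its values were seen. Their differences were -0.24 for Krt10 and 0.19 for Krt1, which pair in the upper epidermis, 0.06 for Krt78 and -0.16 for Krt17, with limma adjusted p from 0.759 to 0.943.

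**Figure D3:**
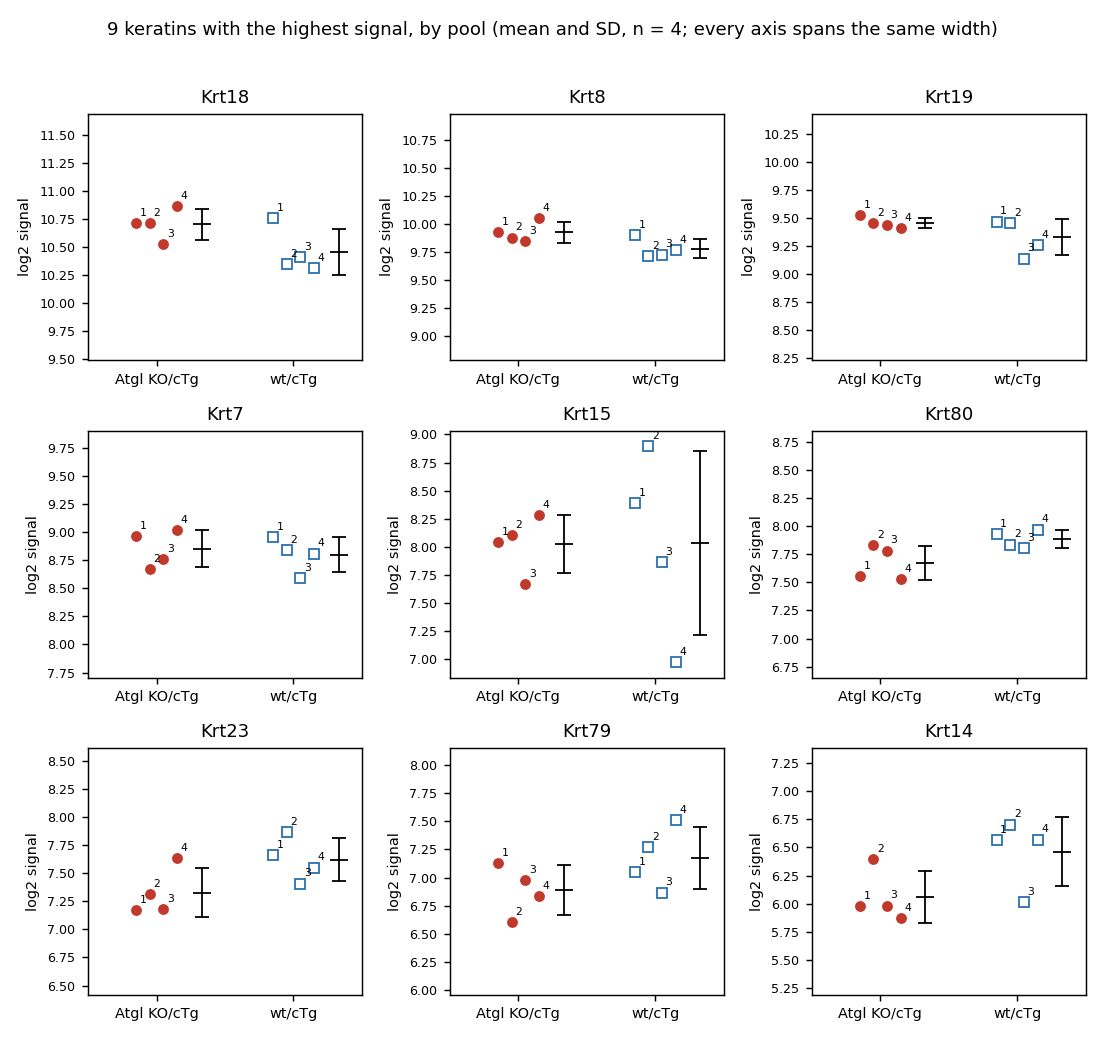
Log2 signal (vertical axes, all of equal width) of the 9 keratins with the highest mean, by pool, with Atgl KO/cTg left and wt/cTg right, numbers for the pools, and mean with SD (n = 4) beside the points. The wt pool 1 lies among the Atgl KO/cTg pools in Krt18 and Krt8, and the wt/cTg pools of Krt15 run from 6.97 to 8.89.

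Among the keratins placed in no class, Krt80 and Krt23 had differences below 0. Krt23, a type I keratin, read 7.17, 7.32, 7.18 and 7.64 in Atgl KO/cTg, against 7.66, 7.86, 7.41 and 7.55 in wt/cTg. KO pool 4 lay within the wt/cTg range and the other 3 below it. The difference was -0.30 (SE 0.13, 95% interval -0.59 to -0.01, limma adjusted p = 0.616, exact permutation p = 0.0857). With single pools left out it ran from -0.40 without KO pool 4 (limma adjusted p = 0.363) to -0.22 without wt pool 2 (limma adjusted p = 0.821). Within the 3 runs it was -0.42, -0.69 and 0.09. Krt80, a type II keratin, read 7.56, 7.83, 7.78 and 7.53 in Atgl KO/cTg, against 7.93, 7.84, 7.81 and 7.97 in wt/cTg. A single Atgl KO/cTg pool, number 2, lay above the lowest wt/cTg pool, with a difference of -0.21 (SE 0.10, 95% interval -0.43 to 0.004, limma adjusted p = 0.631, exact permutation p = 0.0571). Krt42, a nail keratin in the mouse, and Krt222 had differences of -0.02 and -0.09.

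No hair keratin above the filter passed. Krt81 read 5.88 to 6.48 in Atgl KO/cTg, against 5.99 to 6.20 in wt/cTg, and Krt34 read 5.27 to 6.01 in Atgl KO/cTg, against 5.27 to 5.83 in wt/cTg. Krt81, Krt86 and Krt34 had differences of 0.05, 0.06 and -0.01, with limma adjusted p of 0.951 to 0.996 and signs that turned in other settings. Over the 31 keratins below the filter the differences ran from -0.29 to 0.29 with a median of 0.02. One of them, Krt74, annotated as a transcribed pseudogene in RefSeq, was the 1 of 49 whose groups did not overlap (3.77 to 3.96 in Atgl KO/cTg, against 4.00 to 4.23 in wt/cTg), against 3.82% of all genes without the filter. It was named after its values were seen, and its signal was far below the filter. In the fit without a filter 0 of 49 keratins passed, where 0.0316% of all genes did.

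Krt8 and Krt18 varied together from pool to pool, by the Krt18 probe set with the higher mean. No correlation was computed for the other Krt18 probe set. Their signals correlated across the 8 arrays with a Pearson r of 0.937 (exact permutation p = 0.000694, adjusted p = 0.00486 over 7 pairs) and a Spearman rho of 0.857 (exact permutation p = 0.0107, adjusted p = 0.075). Without the 2 arrays farthest from the Krt8 median r was 0.917 (exact permutation p = 0.0139). Within genotypes, as deviations from the genotype means, r was 0.893 (adjusted p = 0.0418 over 7 pairs, permutation). That permutation also paired arrays across genotypes, so its p is approximate. Without KO pool 4 r was 0.931 and its adjusted p was 0.0917. The arrays share RNA amplification and normalization, which can move 2 probe sets together, and this was not tested. Scores of the cell type marker lists also differed from pool to pool, and their part in this correlation was not tested.

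The other type II and type I pairs did not pass. Krt8 with Krt19 gave an r of 0.520 and a rho of 0.357 (exact permutation p = 0.195 and 0.389, adjusted p = 0.273 and 0.545), and 0.978 without KO pool 4 and wt pool 2, the arrays farthest from the Krt8 median. Krt7 with Krt18 gave 0.550 and 0.476 (exact permutation p = 0.157 and 0.243, adjusted p = 0.273 and 0.425), and Krt7 with Krt19 0.610 and 0.500 (exact permutation p = 0.111 and 0.216, adjusted p = 0.258 and 0.425). Without the 2 arrays farthest from the Krt7 median these r were 0.239 and 0.329.

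Pairs among the basal type I keratins were added after their values were seen. Krt15 with Krt17, a keratin of injured and glandular epithelium, gave an r of 0.855 (exact permutation p = 0.0125, adjusted p = 0.0438) and a rho of 0.667 (exact permutation p = 0.0831, adjusted p = 0.291). This r rested on wt pools 2 and 4, without which it was 0.364. Krt17 read 5.06, 5.05, 5.15 and 5.52 in Atgl KO/cTg, against 5.28, 6.08, 5.32 and 4.74 in wt/cTg, so that the same 2 pools were its highest and lowest. Krt14 with Krt15 and Krt14 with Krt17 gave an r of 0.163 and 0.158 and a rho of 0.190 and -0.05 (exact permutation p = 0.705 and 0.727 for r, 0.665 and 0.935 for rho, adjusted p of r 0.727 for both, adjusted p of rho 0.775 and 0.935). Without wt pools 2 and 4 these r were 0.489 and -0.308.

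**Figure D4:**
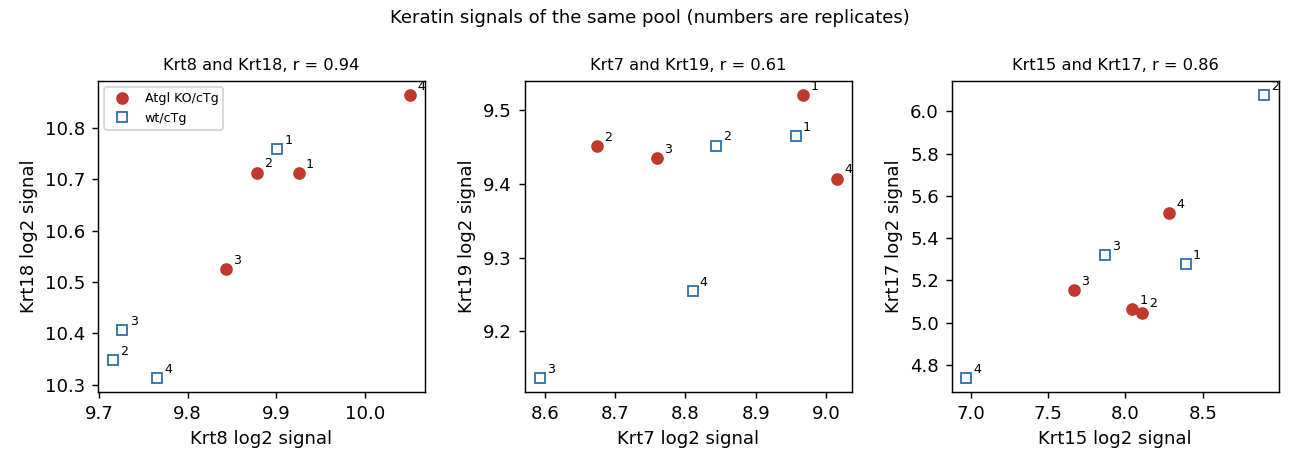
Log2 signals of 2 keratins in the same pool, for Krt8 with Krt18, Krt7 with Krt19 and Krt15 with Krt17, with filled circles for Atgl KO/cTg, open squares for wt/cTg and numbers for the pools. Krt8 and Krt18 fall near a line, and wt pools 2 and 4 stand at the ends of the Krt15 plot.

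Partners of keratin filaments showed no genotype difference that passed. Of 14 tested genes that anchor, link or bind keratins, 6 lay above 0 and 8 below, with a median of -0.03. With the keratinocyte-associated Krtcap2 and Krtcap3, which are not known as anchors, they were 8 above 0 and 8 below. Dsp, desmoplakin, which ties keratins to desmosomes, had a difference of 0.13, and Plec, the linker plectin, one of -0.10. The smallest p values of the 16 belonged to Krtcap3 (0.21, limma adjusted p = 0.616), and Itga6, an integrin of hemidesmosomes (-0.17, limma adjusted p = 0.66). Of 7 tested genes of other intermediate filament classes, 2 lay above 0 and 5 below. Vim, vimentin of mesenchymal cells and leukocytes, read 11.82 to 11.94 in Atgl KO/cTg, against 11.85 to 11.97 in wt/cTg. The smallest p values were those of Des, desmin of muscle (-0.36, limma adjusted p = 0.547), and Nes, nestin (-0.27, limma adjusted p = 0.766).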

How the data were processed

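RNA from club cells of 8 pools of mice, 4 per genotype, was measured on 1-colour mouse arrays. Per the labels' protocols, amplification used 50 ng and a NuGEN Ovation Pico kit, and the label was biotin. The authors deposited log2 signals, 1 per probe set and array, used here as deposited. The unit was read from the values (1.85 to 13.5). For software, background correction and normalization, nothing is given in the sources used here. No detection calls, scanner files, slides or scan dates were used, so batches could not be checked. Precision is limited by there being 8 arrays.

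Of 41345 probe sets, 23521 had 1 gene symbol in the platform annotation, 1814 several and 16010 none. The probe set with the highest mean was kept for each gene, and genes with a mean above 5.18 were tested (13112). The genotype test was that of limma 3.58.1 (R 4.3.3; lmFit and eBayes with a variance trend), two-sided, as Atgl KO/cTg minus wt/cTg. Exact two-sided permutation tests used the 70 arrangements of the arrays (smallest p 0.0286) or, for correlations, all pairings. For deviations from the genotype means the latter is approximate. The fit was tested on simulated data with independent noise and planted differences larger than that of any tested keratin. That simulation does not show whether differences of the size seen in keratins would be found. Intervals are not adjusted. RefSeq tables matched all 49 members by gene ID. Figures were drawn with matplotlib 3.10.9.

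The members, keratin classes and marker lists were chosen with earlier results of these data known. Keratins named were the 12 with the highest signal, those with an unadjusted p under 0.05, non-overlapping groups or the largest difference in a direction, 2 on each side of the filter, the highest of each class, and genomic neighbours of a named one. For other lists they were the 2 with the smallest p, besides defining markers. Alternatives covered the filter, the variance prior, quantile normalization, centring, array weights, the mean of probe sets, age, runs of mouse numbers and each array left out. Leaving out both extreme arrays of component 1, differences within runs, the second Krt18 probe set, and correlations within genotypes, without each array and among Krt14, Krt15 and Krt17 were added after the data were seen.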

Additional observations from a re-analysis of the deposited data

How the results depend on the processing

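No paired analysis was possible because the labels give no replicate numbers and name no pairs of pools. Runs of neighbouring mouse numbers in the sample names were fitted as a block instead: 3 of 4 runs hold both genotypes, wt pool 3 has a run of its own and adds nothing to that fit, and no label says what a run shares. No keratin passed under any of the 19 settings of the genotype test, the main one included, and the keratin median ran from -0.05 to 0.06 over them. The count of genes called over all genes was 13. It was 7 without a level filter and with age as a covariate, 1 without the variance trend, 1 after quantile normalization, 23 with array weights, 3 with runs of mouse numbers as a block, 8 without both extreme arrays of component 1, and between 1 and 25 with single arrays left out. It was 1 without KO pool 1, wt pool 2 or wt pool 4, 2 without KO pool 3, KO pool 4 or wt pool 3, and 25 without wt pool 1.

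Signs turned for keratins with differences near 0. Krt15 was at 0.018 after quantile normalization and 0.058 with age, and Krt7 at -0.018 with the block of mouse numbers. Krt42 was at 0.10 and Krt34 at 0.047 with array weights, at 0.011 and 0.048 with the block, and at 0.081 and 0.15 without both extreme arrays, where Krt81 was at -0.092 and Krt86 at -0.017. With single arrays left out, Krt7 ran from -0.016 to 0.11, Krt15 from -0.36 to 0.28, Krt81 from -0.060 to 0.14, Krt42 from -0.17 to 0.065, Krt34 from -0.14 to 0.11, Krt222 from -0.18 to 0.043 and Krt86 from -0.046 to 0.13. The causes were not tested. Krt18 ran from 0.19 to 0.35, Krt23 from -0.40 to -0.22 and Krt14 from -0.56 to -0.33. The block gave 0.20 for Krt18, -0.35 for Krt23 and -0.58 for Krt14.

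Of the correlations, Krt8 with Krt18 spanned 0.920 to 0.956 with single arrays left out (adjusted p = 0.0917 by exact permutation without KO pool 4), and Krt15 with Krt17 from 0.769 to 0.894. The second kept an adjusted p under 0.05 there only without KO pool 2 (exact permutation, adjusted p = 0.0458). Krt14 with Krt15 ran from -0.261 to 0.740, and Krt14 with Krt17 from -0.580 to 0.469. Without the 2 arrays farthest from the median of the first gene, Krt8 with Krt19 was at 0.978 and passed, Krt15 with Krt17 at 0.364 and Krt14 with Krt17 at -0.308. Fewer arrays allow fewer pairings and larger smallest p values.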

Other observations

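The 4 keratins examined outside the naming rule used here were low. The signal of Krt5, also outside it, was not examined. Krt6a and Krt6b, which epithelia induce on injury, read 3.53 to 3.72 and 3.53 to 3.90 in Atgl KO/cTg, against 3.52 to 3.90 and 3.73 to 4.59 in wt/cTg. The hair keratins Krt33a and Krt33b read 3.97 to 4.43 and 4.74 to 5.37 in Atgl KO/cTg, against 3.80 to 4.25 and 4.57 to 5.02 in wt/cTg. All 4 had means below the filter and were not tested by limma. Their exact permutation p ran from 0.257 to 0.657 with no adjustment.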
